A study of Mus musculus with 6 samples.

Results

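Translation initiation and elongation factors are the proteins that load ribosomes onto mRNA and drive them along it. Their genes were taken here as every protein-coding gene of the deposited table whose symbol begins with Eif or Eef followed by a digit, a rule that uses names only, and it gave 87 of the 78409 genes listed. Of these, 65 passed the filter on low values, a CPM (count scaled to a common library total) of 1 or more in 3 or more libraries, and were tested for a difference between genotypes together with all other genes that passed, 13717 in all. The rule by name also brings in regulators that are not factors themselves, such as the kinases of eIF2, the eIF4E-binding proteins and the methyltransferases of eEF1A and eEF2.

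The hearts came from mice aged 11 months. The control group was 3 littermate hearts whose genotype the labels give as control, and the knockout group was 3 hearts with a cardiomyocyte-specific deletion of Ybx1. The labels name neither the Cre driver nor alleles that the controls may share with the knockouts. Each heart gave 1 library of poly(dT)-primed cDNA, and the other cells of the heart keep Ybx1 by design. Whole hearts were measured, so fewer cells of a type and less RNA per cell cannot be told apart.

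Initiation begins when the eIF2 complex brings the initiator tRNA to the small ribosomal subunit, and eIF4F, built from the cap-binding protein eIF4E, the scaffold eIF4G and the helicase eIF4A, recruits that subunit to the capped end of an mRNA with the help of eIF3. The subunit scans to a start codon under the control of eIF1, eIF1A and eIF5, eIF5B joins the large subunit, and then eEF1A delivers each aminoacyl-tRNA while eEF2 moves the ribosome by a codon. In striated muscle and neurons, eEF1A2 is made as well as or in place of eEF1A1. YBX1, the product of the deleted gene, is a Y-box protein that binds mRNA and is known to compete with the cap-binding complex on it, and Y-box proteins are named for a DNA element that contains CCAAT in the inverted orientation.

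The libraries held 12270796 to 15141525 counts. Ybx1 was at 653 to 932 deposited CPM in the control libraries and at 131 to 222 in the knockout libraries. All 7 cardiomyocyte markers were present, with a summed level of 15092 to 23468 deposited CPM in control and 17582 to 25255 in knockout libraries, and the 5 markers of skeletal muscle summed to 0.896 to 1.28 CPM. The knockout library 3 stood apart from the other 5: mitochondrial rRNA took 10.7% of its counts against 20.5% to 26.3%, and the nuclear RNA Malat1 was at 668 CPM against 3317 to 7923. Many values that moved when this library was left out are given both ways, though not all, and its part in them was not tested beyond that. Knockout library 1 held the highest summed markers of other cell types, in deposited CPM without scaling between libraries. It had 7491 CPM for erythroid cells (controls 3157 to 4148) and 969 for fibroblasts (controls 485 to 731). It had 469 for endothelium (controls 281 to 358) and 756 for smooth muscle and pericytes (controls 445 to 635). Knockout library 3 was also above all controls for erythroid cells (4948) and fibroblasts (892). It was below them for endothelium (246) and within them for smooth muscle and pericytes (480).

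Many factors of the elongation machinery are made from TOP mRNAs, whose first bases are an unbroken run of C and T that places their translation under the kinase mTOR. Stretches around the annotated start sites are printed for the members with the lowest and the highest fold change, Eef2 and Eef1e1. They are also printed for Eif3f, whose annotated start lies within a run of C and T. Further lines give the X- and Y-linked copies of the eIF2 gamma subunit, Eif2s3x and Eif2s3y, whose levels set libraries apart. Each line runs 5′ to 3′ on the gene's strand from 60 bases before the start to 30 bases from it, with sequences from RefSeq on GRCm38.p6, which is not the mm39 build that the submitters name. Capitals mark runs of at least 6 letters that are all C or T from the start onward, and CCAAT before it.
Eef2 (chr10:81176571-81176660, plus strand): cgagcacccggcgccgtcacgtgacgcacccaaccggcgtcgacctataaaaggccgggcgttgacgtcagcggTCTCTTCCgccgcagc
Eef1e1 (chr13:38658999-38659088, minus strand): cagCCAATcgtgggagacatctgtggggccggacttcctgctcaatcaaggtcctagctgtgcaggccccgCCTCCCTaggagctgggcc
Eif3f (chr7:108934355-108934444, plus strand): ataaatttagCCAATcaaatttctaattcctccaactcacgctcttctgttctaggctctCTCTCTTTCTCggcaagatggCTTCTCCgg
Eif2s3x (chrX:94212622-94212711, minus strand): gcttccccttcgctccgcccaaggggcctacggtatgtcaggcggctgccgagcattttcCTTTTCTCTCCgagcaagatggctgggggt
Eif2s3y (chrY:1010535-1010624, plus strand): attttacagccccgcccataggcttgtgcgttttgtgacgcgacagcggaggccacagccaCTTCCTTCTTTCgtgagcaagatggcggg

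Counted from the annotated start, the run covered bases 1 to 11 in Eif3f and Eif2s3x. The letters just before the start of these genes are also C or T. Runs were marked from the start onward only, so the full run of each begins upstream of the annotated start. The run began at base 2 in Eif2s3y and at base 15 in Eef2, where it was 8 letters long. Of the 65 tested members, 51 had a window in the RefSeq table, and 16 of these (31.4%) held a run of at least 6 C or T letters within the 30 bases from a start, against 29.7% of all 27025 genes in that table. CCAAT, searched on both strands (ATTGG on the other) in the 250 bases before the start, was in a window of 15 of the 51 members (29.4%) and of 37.5% of all genes. Among the 6 members with an unadjusted p below 0.05, 5 had a window, and 2 of these held CCAAT. A match describes these letters only.

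With edgeR, no gene among the 13717 had an adjusted p below 0.05 (0% called), and so none of the 65 tested members did. The deleted gene Ybx1, whose lower levels in the knockout libraries are given above, was also among the genes not called. The smallest edgeR adjusted p over all tested genes was 0.148. Other fits called 0.109% of all genes in DESeq2, 0.00729% in limma-trend with 1 added to the CPM, 0.4% of 33251 genes in edgeR without a filter, 0.0365% with a replicate block, 0.0219% when knockout library 3 was left out and 0.0365% when control library 1 was left out as well, and no member in any of them. With the filter and all 6 hearts, the smallest adjusted p among members was 0.694 in edgeR and 0.820 in DESeq2. For Eef1e1 the adjusted p was 0.117 in edgeR without the filter and 0.262 with the replicate block, and 0.381 to 0.9999 in the fits without 1 library. At unadjusted p below 0.05 there were 6 members, or 9.23%, where 5.14% of all tested genes lay below it. Eef1e1, Eif2b1, Eif1b, Eif5a and Eif4ebp1 were higher in knockout hearts (7.69% of members, 2.69% of all genes) and Eef2 was lower (1.54% of members, 2.45% of all genes). Without knockout library 3, Eef1e1 and Eef2 were the 2 members below 0.05, 3.08% of members where all genes gave 3.86%.

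The members sat slightly to the higher side in fold change, but not in every knockout heart. Their median log2 level relative to the control mean was -0.0053, -0.091 and 0.10 in control hearts 1, 2 and 3. It was -0.033, 0.11 and 0.29 in knockout hearts 1, 2 and 3, so the groups overlapped. The median log2 fold change, knockout relative to control, was 0.13 over the 65 members and 0.01 over all tested genes, and 42 members (64.6%) lay above 0 where 51.1% of all genes did. Without knockout library 3 the median was 0.04 against -0.01 over all genes, with 38 members (58.5%) above 0 against 48.5%. Scaling by library totals alone, without TMM factors, raised the median of all genes to 0.17 and that of members to 0.29, with 54 members (83.1%) above 0 where 67.1% of all genes were. The values of the 3 knockout hearts lay all above the controls in 7 members, Eef1e1, Eif2b1, Eif1b, Eif4h, Eif1a, Eif2s2 and Eif3j2 (10.8%, all genes 6.26%), and all below in 3, Eef2, Eif2b4 and Eif2ak2 (4.62%, all genes 5.82%).

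The precision of these values bounds how large a difference could have been missed. The 95% interval of the fold change lay within 2-fold either way for 51 members (78.5%) where 63.5% of all genes had one as narrow, and within 1.5-fold for 17 members. For a single gene, 0.1 is the smallest two-sided p that exact permutation of 3 and 3 hearts allows.

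**Figure D1:**
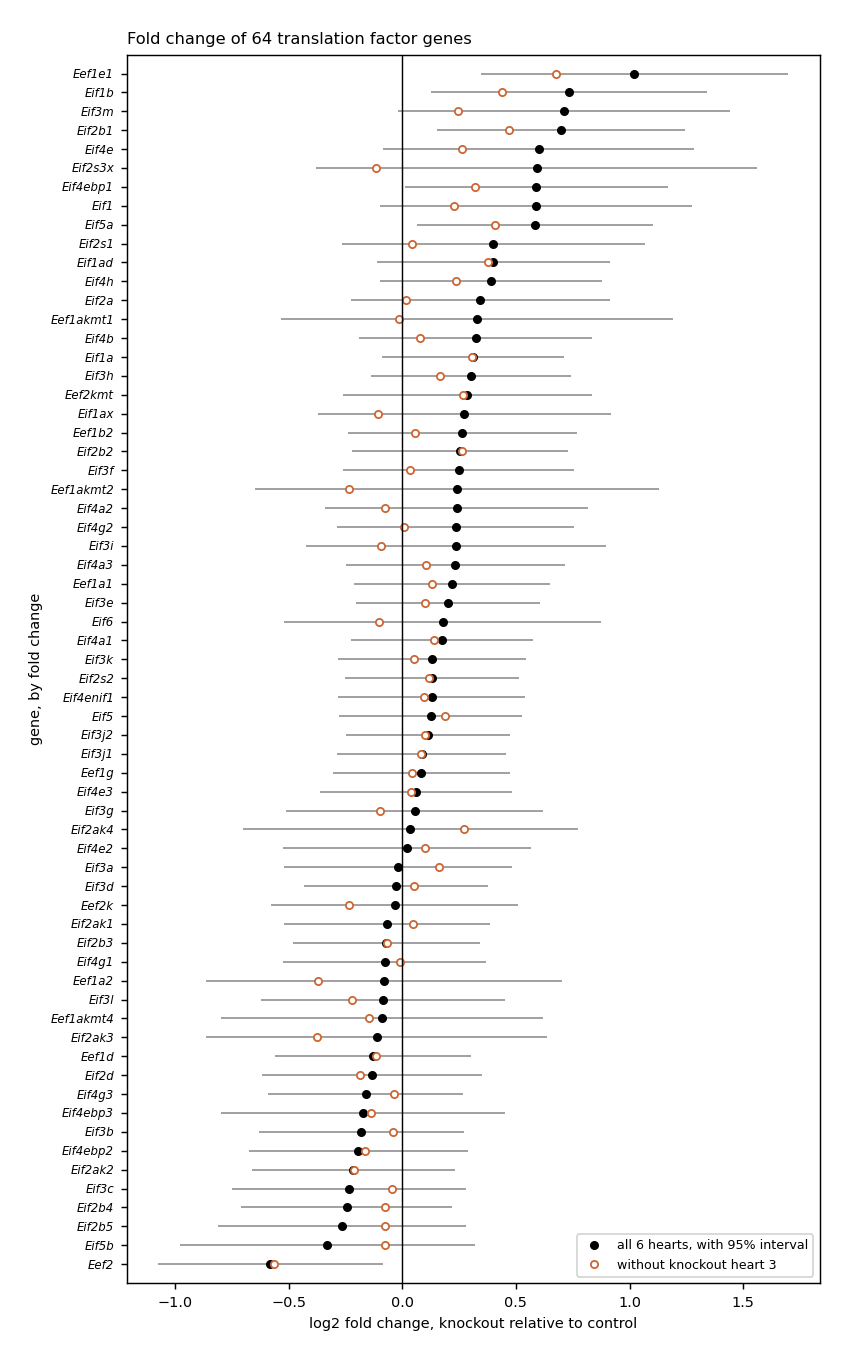
Log2 fold change of 64 tested members, knockout relative to control, with edgeR's 95% interval as a line (all 6 hearts, filled) and the value without knockout heart 3 (open); Eif2s3y is left out because its interval runs from -3.17 to 2.68. The open points lie nearer to 0 for most genes at the top, while Eef2 at the bottom keeps its place (-0.58 with and -0.57 without that heart).

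Among the elongation factors, Eef2 was the member with the lowest fold change and Eef1e1 the one with the highest. Eef2 (ENSMUSG00000034994, chromosome 10), the GTPase that translocates the ribosome, was at 353, 413 and 381 normalised CPM in control hearts 1, 2 and 3 and at 205, 312 and 251 in knockout hearts 1, 2 and 3. Every knockout heart was below every control heart, and knockout heart 1 was the lowest. That library also had the highest summed markers of erythroid, fibroblast, endothelial and smooth muscle cells, whose part in the Eef2 values was not tested. The group means were 382 ± 30.003 and 256 ± 53.5 CPM (SD, n = 3 each), the knockout mean being 66.9% of the control mean. The log2 fold change was -0.58 (SE 0.22, interval -1.07 to -0.09, edgeR adjusted p = 0.694), and it stayed between -0.76 and -0.44 when any single library was left out. With library totals alone it was -0.43, against a median of 0.17 for all genes under that scaling.

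The enzymes that act on eEF2 did not share this pattern. Eef2k, the kinase that phosphorylates eEF2 and slows elongation, was at 13.2, 16.9 and 19.0 CPM in the controls and 12.03, 15.9 and 20.1 in the knockouts, and the groups overlapped (log2 fold change -0.03, interval -0.58 to 0.51, and -0.23 without knockout library 3). Eef2kmt, which methylates a lysine of eEF2, was at 5.81 ± 1.57 and 7.12 ± 0.824 CPM (SD, n = 3 each; 0.29, interval -0.26 to 0.83). Genes for diphthamide synthesis, the modification of eEF2 that diphtheria toxin recognises, are given with the pathway lists.

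The 2 genes for eEF1A, the carrier of aminoacyl-tRNA, are near-identical in protein sequence and were counted apart. Eef1a1, the form made in most tissues, was at 271, 273 and 263 CPM in control hearts, a narrow spread, and at 320, 270 and 350 in the knockouts. Knockout hearts 1 and 3 lay above all controls and knockout heart 2 lay within them (log2 fold change 0.22, SE 0.19, interval -0.21 to 0.65, and 0.13 without knockout library 3). Eef1a2, the form of muscle and neurons, was at 94.1, 104 and 149 CPM in the controls and 57.5, 122 and 148 in the knockouts (-0.08, interval -0.87 to 0.70). Control heart 3 and knockout heart 3 were the high values in their groups and knockout heart 1 stood lowest of all 6. The summed level of 4 atrial cardiomyocyte markers was 125, 171 and 399 deposited CPM in the controls and 103, 278 and 344 in the knockouts. Knockout heart 1 was the lowest for this sum as well. The other hearts are not ranked against Eef1a2, because deposited CPM has no scaling between libraries and the Eef1a2 values do. The part of these markers in the Eef1a2 values was not tested. The sign of the Eef1a2 value turned between fits without 1 library, being -0.37 when knockout library 3 was left out and 0.22 when knockout library 1 was, and it was 0.07 with library totals alone.

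Per kilobase of the longest coding transcript in GENCODE M21, the Eef1a2 level was 0.298, 0.329 and 0.486 times that of Eef1a1 in control hearts and 0.155, 0.387 and 0.365 times in knockout hearts. The ratio is taken within a library and needs no scaling between libraries, and its groups overlapped. Eef1a1 has many processed pseudogenes, so part of its reads may have been shared out with them. The ratio of Eef1a1 to Eef2 counts was chosen after the values were seen and so is given without a test. It was 0.769, 0.661 and 0.690 in control hearts and 1.56, 0.868 and 1.39 in knockout hearts, with no overlap. The longest coding transcripts of Eef1a1 and Eef2 are 1794 and 3089 bases long. The part of length in this ratio was not tested.

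**Figure D2:**
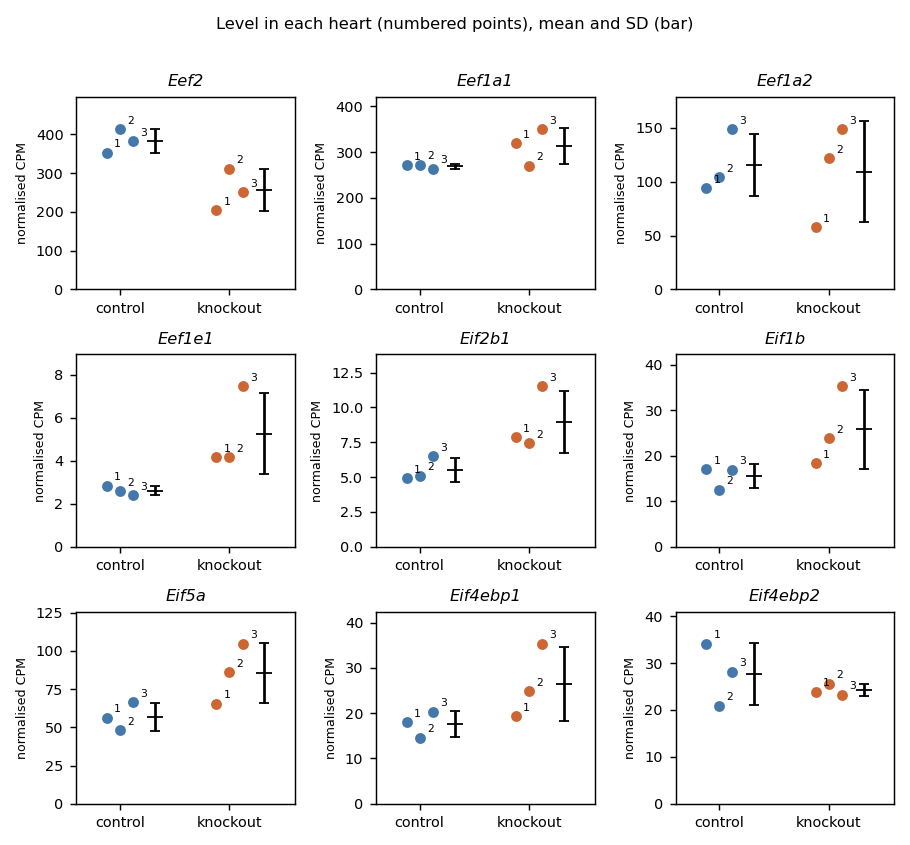
Normalised CPM (vertical axes from 0) of 9 members in each heart, as points numbered by heart, with the group mean and SD as a bar (n = 3 each). The 3 knockout points of Eef2 lie below all controls and those of Eef1e1, Eif2b1 and Eif1b above them, with knockout heart 3 highest in the latter 3; the groups overlap for the other genes shown.

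Eef1e1 (ENSMUSG00000001707, chromosome 13) encodes AIMP3, a small scaffold protein of the multi-tRNA-synthetase complex rather than an elongation factor in the strict sense. It was at 2.83, 2.59 and 2.39 CPM in the controls and 4.15, 4.17 and 7.45 in the knockouts, from 28 to 134 counts a library. All knockout hearts were above all control hearts and knockout heart 3 was the highest. The log2 fold change was 1.02 (SE 0.30, interval 0.34 to 1.70, edgeR adjusted p = 0.694), and 0.68 without knockout library 3.

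The eEF1B subunits, which reload eEF1A with GTP, did not separate the groups. Eef1b2, the catalytic subunit, was at 83.5, 73.2 and 86.8 CPM in the controls and 75.6, 93.4 and 123 in the knockouts (0.26, interval -0.24 to 0.77, and 0.06 without knockout library 3). Eef1g, a structural subunit, was at 67.5 ± 6.04 and 71.5 ± 3.75 CPM (0.08, interval -0.31 to 0.47) and Eef1d at 64.4 ± 1.85 and 58.9 ± 10.54 CPM (-0.13, interval -0.56 to 0.30; SD, n = 3 each), with knockout heart 1 lowest for Eef1d at 48.9 CPM. Of the eEF1A methyltransferases, Eef1akmt1 was at 10.9, 7.39 and 14.2 CPM in the controls and 6.80, 14.9 and 19.2 in the knockouts, and Eef1akmt2 at 2.59, 2.49 and 3.18 and at 1.63, 3.11 and 5.004 CPM. Both were lowest in knockout heart 1 and highest in knockout heart 3, so the groups overlapped at both ends (0.33 and 0.24, and -0.02 and -0.23 without knockout library 3). Eef1akmt4 was at 1.83 ± 0.306 and 1.72 ± 0.390 CPM, and its reads are uncertain because the annotation also holds the readthrough gene Eef1ece2.

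The factors of start codon choice all lay above 0 in fold change, 6 of 6 tested, with a median of 0.35, or 0.27 with 5 of 6 above 0 without knockout library 3. Eif1, which keeps the scanning ribosome open until a start codon is met, was at 196, 145 and 227 CPM in the controls and 206, 239 and 410 in the knockouts. Knockout heart 3 accounted for the high value and the other knockout hearts lay among or just above the controls (0.59, interval -0.10 to 1.27, and 0.23 without knockout library 3). Its paralogue Eif1b (ENSMUSG00000006941, chromosome 9) was at 17.1, 12.6 and 16.9 CPM in the controls and 18.3, 23.8 and 35.2 in the knockouts, with no overlap (0.73, SE 0.27, interval 0.13 to 1.34, and 0.44 without knockout library 3). The ratio of Eif1b to Eif1 counts was 0.0744 to 0.0871 in control and 0.0860 to 0.0998 in knockout hearts.

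Eif1a, for the factor that works beside eIF1 in scanning, was at 9.75 ± 0.252 CPM in the controls and 12.1 ± 1.34 in the knockouts (SD, n = 3 per group), again with no overlap (0.31, interval -0.09 to 0.71, and 0.31 without knockout library 3). The X-linked Eif1ax was at 21.7, 21.4 and 28.1 CPM in the controls and 20.5, 23.7 and 41.8 in the knockouts, high in knockout heart 3 alone (0.27, and -0.11 without that library). Eif5, which makes eIF2 hydrolyse its GTP at the start codon, was at 93.2 ± 5.28 and 102 ± 11.05 CPM (0.12, interval -0.28 to 0.53). Eif1ad, named for its eIF1A-like domain, was at 4.40 ± 0.400 and 5.81 ± 1.10 CPM (0.40, interval -0.11 to 0.91).

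The eIF2 complex, its exchange factor eIF2B and the kinases that inhibit it form the switch of the integrated stress response. For the alpha subunit Eif2s1, the target of those kinases, the levels were 12.5, 11.0 and 16.3 CPM in the controls and 11.96, 15.5 and 25.1 in the knockouts (0.40, and 0.04 without knockout library 3). The beta subunit Eif2s2 was at 98.6, 92.0 and 104 CPM in the controls and 108, 105 and 109 in the knockouts. Its knockout values were all above the controls, though the difference was small (0.13, interval -0.25 to 0.51). Eif2a and Eif2d, which can deliver initiator tRNA without eIF2, gave 0.34 (0.02 without knockout library 3) and -0.13.

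The gamma subunit is encoded by an X-linked and a Y-linked gene in mice. Eif2s3y was at 27.6 and 22.2 CPM in controls 2 and 3 and at 20.7 and 21.8 in knockouts 1 and 2, whereas it had 4 counts in control heart 1 and 2 counts in knockout heart 3. In those same libraries Xist, the RNA that coats the inactive X chromosome, was at 387 and 201 deposited CPM, where the other 4 libraries had 0.205 to 2.79. Each group thus held 1 library with Xist and little Eif2s3y. Eif2s3x was at 28.5, 16.4 and 25.5 CPM in the controls and 20.9, 22.5 and 62.6 in the knockouts, highest in its group in both libraries with Xist. Its log2 fold change was 0.59 (interval -0.38 to 1.56) with all hearts, -0.12 without knockout library 3 and 0.04 without both libraries with Xist.

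The 5 subunits of eIF2B, the factor that recharges eIF2 with GTP, did not lie on the same side of 0. Eif2b1 (ENSMUSG00000029388, chromosome 5), the alpha subunit through which phosphorylated eIF2 is sensed, was at 4.93, 5.08 and 6.501 CPM in the controls and 7.88, 7.43 and 11.5 in the knockouts. All knockout hearts were above all controls (0.70, SE 0.24, interval 0.15 to 1.25, edgeR adjusted p = 0.694, and 0.47 without knockout library 3). Eif2b2, the beta subunit, was at 9.97 ± 1.77 and 11.9 ± 1.78 CPM (0.25, interval -0.22 to 0.73). Eif2b3, a subunit of the catalytic part, was at 17.0 ± 1.12 and 16.2 ± 2.22 CPM (-0.07).

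The delta subunit Eif2b4 was at 24.2, 26.0 and 23.8 CPM in the controls and 23.7, 23.0 and 15.8 in the knockouts. Its groups did not overlap, with knockout heart 3 far the lowest (-0.24, and -0.08 without that library). Eif2b5, the catalytic epsilon subunit, was at 22.2, 25.9 and 21.4 CPM in the controls and 18.4, 25.5 and 14.01 in the knockouts (-0.26, and -0.08 without knockout library 3).

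Of the 4 eIF2 alpha kinases, 3 lay below 0, or 2 without knockout library 3, and none had an unadjusted p below 0.05. Eif2ak2, the double-stranded RNA sensor PKR, was at 6.15, 5.54 and 5.44 CPM in the controls and 4.55, 5.31 and 4.89 in the knockouts. The knockout values were all below the controls by a small margin (-0.22, interval -0.66 to 0.23). Eif2ak1, the haem-regulated kinase HRI, was at 7.93 ± 0.460 and 7.58 ± 1.26 CPM (-0.07, 0.05 without knockout library 3 and 0.09 with library totals alone). Eif2ak3, the endoplasmic reticulum stress kinase PERK, was at 1.79 ± 0.333 and 1.63 ± 0.473 CPM, a difference of -0.11 that became -0.38 without knockout library 3 and 0.08 with library totals alone. Eif2ak4, the amino acid sensor GCN2, was at 4.61, 7.58 and 5.04 CPM in the controls and 8.36, 5.39 and 3.89 in the knockouts (0.04, interval -0.70 to 0.77, and from -0.31 to 0.27 without 1 library), with the highest and the lowest of the 6 values both in knockout hearts.

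In eIF3, the scaffold that holds the small ribosomal subunit and the mRNA together, 9 of 14 tested genes lay above 0 and the median was 0.10. Without knockout library 3 the median was 0.05, again with 9 of 14 above 0. Eif3a, the largest subunit, was at 189, 182 and 181 CPM in the controls and 216, 195 and 134 in the knockouts. Knockout hearts 1 and 2 lay above the controls and knockout heart 3 below them (-0.02, 0.16 without knockout library 3 and 0.12 with library totals alone). Eif3c, another core subunit, was at 104, 88.9 and 90.1 CPM in the controls and 88.3, 94.7 and 57.7 in the knockouts (-0.24, and -0.05 without knockout library 3). Eif3b was at 41.5, 44.8 and 37.9 CPM in the controls and 37.6, 43.0 and 29.1 in the knockouts, low again in knockout heart 3 (-0.18, and -0.04 without that library).

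Eif3m, one of the outer subunits found in mammals and not in budding yeast, went the other way in that heart. Its levels were 39.5, 31.1 and 44.2 CPM in the controls and 42.7, 48.2 and 97.2 in the knockouts, and knockout heart 1 lay within the controls (0.71, interval -0.02 to 1.44, and 0.25 without knockout library 3). Eif3e, Eif3f and Eif3h, whose human counterparts have TOP mRNAs, gave 0.20, 0.25 and 0.30, and 0.10, 0.03 and 0.17 without knockout library 3. The other subunits, Eif3d, Eif3g, Eif3i, Eif3k and Eif3l, lay between -0.09 and 0.23. Without knockout library 3, Eif3d turned from -0.03 to 0.05, Eif3g from 0.05 to -0.10 and Eif3i from 0.23 to -0.09. Eif3k went from 0.13 to 0.05 and Eif3l from -0.09 to -0.22 in that fit.

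The paralogues Eif3j1 and Eif3j2 were the steadiest members. Eif3j1 was at 58.7, 61.4 and 65.8 CPM in the controls and 66.2, 64.9 and 66.1 in the knockouts, and Eif3j2 at 30.6, 30.2 and 31.97 and at 33.0, 33.3 and 34.0 CPM. The Eif3j2 groups did not overlap, yet the difference was 0.11 (interval -0.25 to 0.47). Their ratio stayed at 0.486 to 0.520 in all 6 libraries, and because the copies are closely similar, reads may have been split between them.

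**Figure D3:**
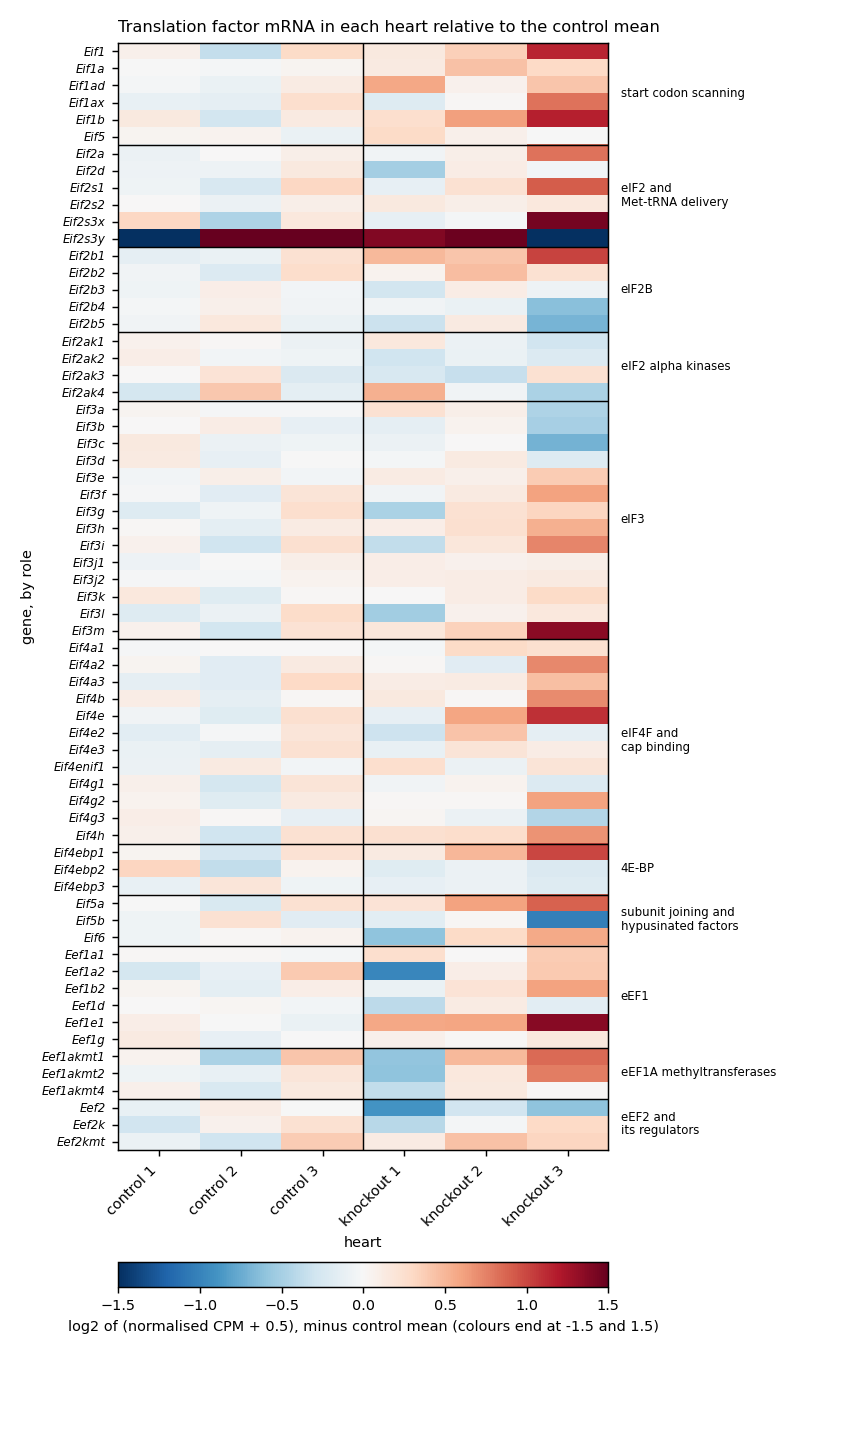
Log2 of normalised CPM plus 0.5 of the 65 tested members (rows, by role) in the 6 hearts (columns), minus the mean of the 3 control hearts, with colours ending at -1.5 and 1.5. Knockout heart 3 holds the deepest reds (33 members were highest there) and the low values of Eif3a, Eif3c and Eif5b, while the Eif2s3y row splits the hearts by its near absence in control heart 1 and knockout heart 3.

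The cap-binding complex eIF4F and its partners lay above 0 in 10 of 12 tested genes, with a median of 0.20, or 0.09 without knockout library 3. Eif4e, the cap-binding protein, was at 34.8, 31.8 and 42.7 CPM in the controls and 33.0, 54.5 and 78.1 in the knockouts. Knockout heart 1 lay within the controls and the other knockout hearts above them (0.60, interval -0.08 to 1.29, and 0.26 without knockout library 3). Its homologues Eif4e2, a repressor that binds the cap without eIF4G, and Eif4e3 were at 10.9 ± 1.36 and 11.1 ± 3.26 CPM (0.02) and, for the latter, 41.4 ± 5.90 and 43.2 ± 4.58 CPM (0.06; SD, n = 3 each).

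The scaffold Eif4g1 was at 140, 110 and 151 CPM in the controls and 128, 137 and 115 in the knockouts (-0.08, interval -0.53 to 0.37, and 0.05 with library totals alone), and Eif4g3 at 40.7 ± 3.18 and 36.4 ± 5.96 CPM (-0.16, or -0.04 with knockout library 3 left out). Eif4g2, a relative of eIF4G that lacks the eIF4E-binding part and serves cap-independent initiation, was at 229, 195 and 242 CPM in the controls and 224, 224 and 338 in the knockouts, high in knockout heart 3 alone (0.24, and 0.01 without that library).

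The helicase genes Eif4a1 and Eif4a2 are close paralogues. Eif4a1 was at 81.4, 82.8 and 82.9 CPM in the controls and 80.9, 101 and 97.2 in the knockouts (0.18, interval -0.22 to 0.58). Eif4a2 was at 64.9, 56.0 and 69.4 CPM in the controls and 64.1, 56.1 and 104 in the knockouts (0.24, and -0.08 without knockout library 3). Eif4a3, a helicase of the exon junction complex, was at 9.73 ± 1.92 and 11.5 ± 1.64 CPM (0.23, or 0.10 with knockout library 3 left out), and Eif4h, which stimulates the helicase, at 41.7, 32.2 and 46.7 CPM in the controls and 47.0, 47.6 and 63.5 in the knockouts, with no overlap (0.39, interval -0.10 to 0.88, and 0.23 without knockout library 3). Eif4enif1, which carries eIF4E into the nucleus, was at 19.4 ± 1.62 and 21.2 ± 2.64 CPM (0.13).

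The 4E-BP genes encode the small repressors that hold eIF4E away from eIF4G until mTOR phosphorylates them. Eif4ebp1 (ENSMUSG00000031490, chromosome 8) was at 17.96, 14.6 and 20.3 CPM in the controls and 19.3, 24.9 and 35.4 in the knockouts. Knockout heart 1 lay within the controls and the others above (0.59, SE 0.25, interval 0.01 to 1.17, edgeR adjusted p = 0.694, and 0.32 without knockout library 3). Eif4ebp2 was at 34.1, 20.9 and 28.2 CPM in the controls and 23.9, 25.6 and 23.3 in the knockouts (-0.19, interval -0.68 to 0.29), and Eif4ebp3 at 1.98 ± 0.286 and 1.75 ± 0.0774 CPM.

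The balance of Eif4ebp1 and Eif4ebp2 can be read within each library. The ratio of Eif4ebp2 to Eif4ebp1 counts was 1.91, 1.43 and 1.39 in control hearts and 1.23, 1.03 and 0.658 in knockout hearts, with every knockout heart below every control heart and knockout heart 3 the lowest. The longest coding transcripts of Eif4ebp2 and Eif4ebp1 are 5784 and 1997 bases long, and the part of length in this ratio was not tested. The ratio of Eif4a2 to Eif4a1 counts was 0.797, 0.676 and 0.837 in control and 0.793, 0.558 and 1.07 in knockout hearts, which overlapped. These within-library ratios are descriptions and were not tested.

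Eif5a (ENSMUSG00000078812, chromosome 11) encodes the factor that carries hypusine, a lysine derivative that helps the ribosome past difficult stretches such as runs of proline. It was at 56.3, 48.1 and 66.5 CPM in the controls and 65.4, 86.1 and 105 in the knockouts. Knockout heart 1 lay just under the highest control and the others above it (0.58, SE 0.23, interval 0.06 to 1.10, edgeR adjusted p = 0.694, and 0.41 without knockout library 3). Its paralogue Eif5a2 was not tested, with 1.5 to 7 counts in the control and 4 to 13 counts in the knockout libraries. Eif5b, the GTPase of subunit joining, was at 270, 329 and 251 CPM in the controls and 252, 286 and 138 in the knockouts, with knockout heart 3 at the bottom and the rest overlapping (-0.33, interval -0.98 to 0.32, and -0.08 without knockout library 3). Eif6, which keeps large subunits from joining too early, was at 6.13 ± 0.277 and 6.91 ± 2.77 CPM (0.18, or -0.10 with knockout library 3 left out).

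The 9 members known in humans as TOP mRNAs, Eef1a1, Eef1b2, Eef1d, Eef1g, Eef2, Eif3e, Eif3f, Eif3h and Eif4b, had 7 values above and 2 below 0. Their median was 0.22 beside 0.13 for the 56 other tested members and 0.01 for all genes. Without knockout library 3 the medians in that order were 0.06, 0.04 and -0.01. Knockout heart 3 held the highest value of 7 of the 9. Eif4b, which stimulates the helicase eIF4A, was at 73.5, 61.7 and 68.9 CPM in the controls and 75.2, 68.4 and 112 in the knockouts (0.32, and 0.08 without knockout library 3). The other 2 were the members below 0, Eef2 with its highest value in control heart 2 and Eef1d in knockout heart 2.

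Spread between hearts was unequal. Knockout heart 3 gave the highest value of 33 of 65 members (50.8%) where it did so for 33.9% of all tested genes, and the lowest of 12 (18.5%) where it did so for 34.3%. Control heart 2 gave the lowest value of 27 members and of 3461 of the 13717 tested genes, and knockout heart 1 of 17 members and 2116 genes. The position of a gene in knockout heart 3 varied with transcript length. Relative to the other 5 hearts, the 23 members with a longest coding transcript under 2000 bases had a median log2 difference of 0.40 there, 21 of them above 0, and the 24 members of 3000 bases or more had one of -0.06, 11 of them above 0. Spearman's rho between length and that difference was -0.38 over 64 members and -0.31 over 11496 tested protein-coding genes, and in control heart 2 it was 0.37 and 0.28. In the other hearts it was 0.25 and 0.19 for control 1, 0.23 and 0.25 for knockout 1 and -0.31 and -0.18 for knockout 2, and -0.0046 and -0.12 for control 3. Over all protein-coding genes under 2000 bases the median difference in knockout heart 3 was 0.30, with 1951 of 2786 above 0. These are descriptions across genes of 1 library, which share depth and library preparation.

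**Figure D4:**
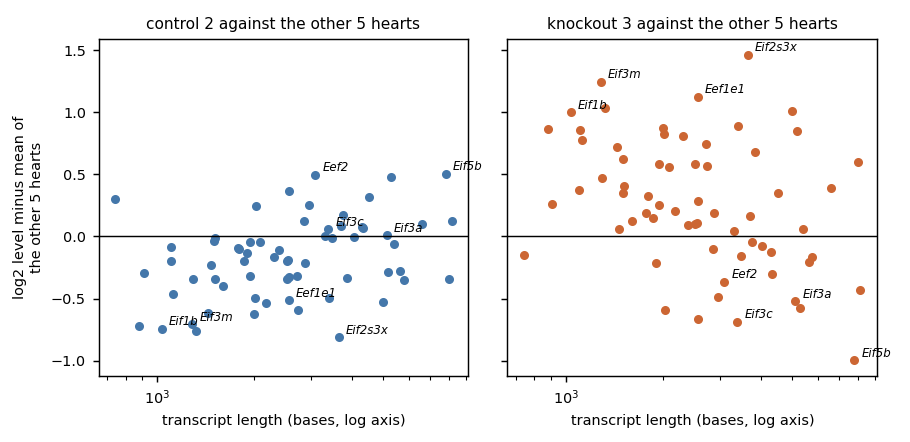
Difference in log2(normalised CPM + 0.5) between 1 heart and the mean of the other 5 (vertical axis) against the length of the longest coding transcript (horizontal log axis) for 64 members, in control heart 2 (left) and knockout heart 3 (right). Short transcripts lie low in control heart 2 (rho 0.37) and high in knockout heart 3 (rho -0.38), where Eif5b, Eif3c and Eif3a are among the lowest.

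The 22 untested members carried almost no reads. Among them were 16 Eif1ad paralogues, of which 9 had no count in any library and none had more than 1 count in a library. Eif4e1b, an eIF4E form of the oocyte, had 0 counts in all 6 libraries. Apart from Eif5a2, none exceeded 3 counts in a library, so no difference was detectable at this depth for these genes.

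The wider pathway was read from 57 listed genes around the factors, 55 of them tested, and 0 passed the adjusted threshold in edgeR. At unadjusted p below 0.05 there were 3 of 55 (5.45%, where 5.14% of all tested genes lay below it), all with higher means in knockout hearts. Rheb, the GTPase that activates mTOR, was at 20.1, 17.2 and 27.0 CPM in the controls and 28.0, 29.5 and 50.6 in the knockouts, with no overlap (0.75, interval 0.11 to 1.39, edgeR adjusted p = 0.694, and 0.42 without knockout library 3). Paip2b, a repressor that binds the poly(A)-binding protein, was at 5.58, 6.28 and 6.97 CPM in the controls and 7.34, 8.80 and 10.4 in the knockouts, with no overlap (0.49, interval 0.02 to 0.97, and 0.36 without knockout library 3). Dnajc24, a diphthamide synthesis gene also known as Dph4, was at 1.94, 1.66 and 2.45 CPM in the controls and 1.90, 3.49 and 9.12 in the knockouts, high in knockout heart 3 (1.26, and 0.39 without that library). Dnajc24 passed in edgeR without the filter on low counts, at an adjusted p of 0.0248.

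By role, values above 0 were found in 4 of 6 tested termination and recycling genes, 5 of 7 poly(A)-binding genes, 3 of 12 mTOR and MNK signalling genes, 4 of 8 hypusine and diphthamide genes, 3 of 7 integrated stress response genes, 7 of 10 mitochondrial translation factors and 2 of 5 other elongation genes. Without knockout library 3 the counts in that order were 5, 4, 3, 4, 4, 7 and 3. Atf4, the transcription factor whose translation rises when eIF2 is phosphorylated, was at 48.2, 55.3 and 39.5 CPM in the controls and 54.7, 44.3 and 33.9 in the knockouts, and the groups overlapped (-0.11, but 0.06 both without knockout library 3 and with library totals alone). The mTOR kinase gene Mtor itself was at 12.3, 9.70 and 12.7 CPM in the controls and 15.02, 13.4 and 13.3 in the knockouts, with no overlap (0.26, interval -0.16 to 0.68). In the same signalling list, Rps6kb2 and Mlst8 had all knockout hearts below all controls (-0.97 and -0.40, or -0.64 and -0.44 without knockout library 3). So did Ddit3 of the integrated stress response list (-0.42, and -0.38 without that library). The knockouts lay all above the controls in 5 of the 55 tested pathway genes and in 858 of all 13717 tested genes (6.26%). They lay all below in 4 of the 55 and in 799 of the 13717 (5.82%).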

How the data were processed

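Polyadenylated RNA of 3 control and 3 knockout hearts was measured. The authors' deposited table gives estimated counts and CPM per gene and library; the submitters' processing notes name the build mm39 and, without their roles, edgeR 4.0.16, Subread 2.1.1, featureCounts, SAMtools 1.22.1 and STAR 2.7.11. For annotation release, strand setting and multi-mapping reads, nothing is given in the sources used here. Fractional values made up 21.3% to 22.7% of detected genes per library. The deposited CPM is the count scaled to its column total, with no scaling between libraries. Such counts carry counting error from 12270796 to 15141525 counts a library, and reads had no molecular identifiers.

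Counts were rounded to whole numbers and fitted in R 4.3.3 by the quasi-likelihood method of edgeR 4.0.16 on 13717 genes with a deposited CPM of at least 1 in at least 3 libraries, with TMM factors (0.806 to 1.19), no covariate and Benjamini-Hochberg adjustment over all tested genes at 0.05. Normalised CPM uses these factors. Standard errors come from the F statistic. The p-values are two-sided and set the difference between groups against the spread between these hearts, an estimate that borrows across genes. Alternatives used DESeq2 1.42.0, limma 3.58.1 and further settings. The fits were tested on simulated data. Members and lists were chosen with earlier results of these data known, so none is adjusted over the list alone. Named genes were those with unadjusted p below 0.05, the most abundant and the smallest p of each role, fixed paralogues, the 5 highest and 5 lowest fold changes and the 5 with the widest spread; others were named after their values were seen. Lengths and chromosomes come from GENCODE M21 (GRCm38), matched by gene ID, and start windows from RefSeq, matched by symbol.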

Additional observations from a re-analysis of the deposited data

How the results depend on the processing

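No member passed the adjusted threshold under any of the 8 other settings or the 6 fits without 1 library. Over all 13717 genes edgeR called 0, with 705 at an unadjusted p below 0.05. DESeq2 called 15, limma-trend on log2(CPM + 1) called 1, edgeR without a filter 133 of 33251, and leaving out 1 library 0 to 3. Without control library 1 and knockout library 3, a setting added after seeing the data, 5 were called. The median over members was 0.29 with library totals, 0.28 and 0.27 in limma-trend with 0.5 and 1 added to the CPM, and 0.04 to 0.20 without 1 library.

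Same-numbered hearts were not treated as paired in the main fit. The correlation of their deviations from the group means was -0.11, 0.45 and 0.58. By these deviations control 1 correlated most with knockout 3, at 0.29. With the replicate number as a block, 5 genes and 0 members were called, and the log2 fold changes turned to Eif4e2 -0.0087 and Eif2ak4 -0.0004.

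Signs also turned for named genes, none past the threshold. With library totals only, the log2 fold changes were Eif2ak1 0.089, Eif3a 0.12, Eef1a2 0.067, Eif4g1 0.049 and Eif2ak3 0.084. In limma-trend with 0.5 added, the log2 fold changes were Eif2ak1 0.076, Eif3a 0.11, Eif4g1 0.089 and Eif2ak3 0.015. With 1 added, the log2 fold changes were Eif2ak1 0.072, Eif3a 0.11, Eif4g1 0.088 and Eif2ak3 0.019. Without control library 1 and knockout library 3, the log2 fold changes were Eif2ak1 0.078, Eif3a 0.18, Eif4ebp2 0.0048, Eef1akmt1 -0.016, Eif4a2 -0.065, Eif4e3 -0.018, Eif4g1 0.017, Eif4g3 0.014 and Eef1akmt2 -0.28. Between the fits without 1 library, values ran from -0.25 to 0.17 for Eif4e2, from -0.31 to 0.27 for Eif2ak4, from -0.83 to 0.35 for Eif2s3y, from -0.016 to 0.19 for Eif4e3, from -0.38 to 0.012 for Eif2ak3, from -0.37 to 0.22 for Eef1a2, from -0.21 to 0.020 for Eif4g1, from -0.12 to 0.86 for Eif2s3x, from -0.20 to 0.045 for Eif2ak1, from -0.16 to 0.16 for Eif3a, from -0.015 to 0.65 for Eef1akmt1, from -0.077 to 0.40 for Eif4a2 and from -0.23 to 0.56 for Eef1akmt2. The cause was not tested.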
